A study of Mus musculus with 8 samples.

Results

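Reads of an m6A-eCLIP experiment were followed at 4 genes of hormone granules, Scg2, Vgf, Chgb and Resp18, in αTC1-6 cells with and without knockdown of Mettl14. The members were the sites of the deposited table inside the RefSeq spans of these genes and of no other protein-coding gene. They were 41 of 33774 sites, with 22 in Scg2, 3 in Vgf, 15 in Chgb and 1 in Resp18. The 4 genes were selected on earlier results of these data, the M14KD over SCR fold changes of their reads in IP and Input, in which Scg2 and Vgf stood out. Differences between knockdown and control are therefore given as a description without a test, while IP over Input within a genotype, which did not choose them, was tested.

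αTC1-6 is a clonal line of mouse glucagon-making alpha cells, derived from a pancreatic tumour of transgenic mice. Cells carried an siRNA against Mettl14 (M14KD) or a scramble siRNA (SCR), and the 4 groups were IP M14KD, IP SCR, Input M14KD and Input SCR, with 2 libraries each. In m6A-eCLIP, ultraviolet light fixes an antibody against N6-methyladenosine to RNA and the bound fragments are sequenced (IP), while Input libraries are their counterparts without that selection. M14KD libraries carry replicate numbers 3 and 4, SCR libraries 1 and 2, and an IP and an Input library share each number. Whether replicates are separate cultures is not labelled, and p-values therefore cover the spread between these libraries, which may be technical.

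Summed site counts ran from 10207383 to 10918559 in IP libraries and from 3438530 to 3637740 in Input libraries. Mettl14 itself had 42 and 25 counts in IP M14KD against 78 and 81 in IP SCR, and 32 and 22 counts in Input M14KD against 64 and 44 in Input SCR, so its reads were lower but not absent after knockdown. The alpha cell markers Gcg, Ttr, Irx1, Irx2, Pcsk2 and Etv1 had sites. None of 10 markers of other islet cells, nor of 8 markers of non-endocrine cells, had a site in the table, which lists sites rather than all expressed genes. The summed level of these 6 alpha cell markers in Input was 72586 to 73246 CPM (counts scaled to a common library total of summed site counts) in M14KD against 61846 to 64971 CPM in SCR. In IP it was 24500 to 25010 CPM in M14KD against 20483 to 21457 CPM in SCR. The sum was carried by Gcg, with a mean of 57690 CPM in Input M14KD against 49959 CPM in Input SCR, and Ttr, with 11445 CPM in Input M14KD against 9598 CPM in Input SCR. The markers did not all lie on one side: Irx1 had 1429 CPM in Input M14KD against 1549 CPM in Input SCR and Irx2 had 467 CPM in Input M14KD against 503 CPM in Input SCR. The IP means of Irx1, Irx2 and Pcsk2 were also lower in M14KD than in SCR. The part of this difference in the results on the 4 genes was not tested. In bulk libraries more cells of a type and more RNA per cell cannot be told apart.

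Granins are acidic secreted proteins packed with peptide hormones in the dense-core granules of endocrine cells and neurons. They aggregate in the trans-Golgi network, help granules form, and are cut by prohormone convertases into smaller peptides that are released with the hormone. In alpha cells the main cargo of such granules is glucagon. The m6A mark is written on messenger RNA by the complex of Mettl3 and Mettl14, and reader proteins that bind it affect how long a transcript lasts and how it is translated.

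Scg2 encodes secretogranin II, the precursor of secretoneurin. It spans 5661 bases on the minus strand of chromosome 1, chr1:79434366-79440026 in mm10, and its sites ran from position 79435144 to 79440005. Of the 22 sites, 21 lay between 3156 and 4882 bases from the gene start, and 1 lay 21 bases from it. Chgb encodes chromogranin B and spans 13438 bases on the plus strand of chromosome 2, chr2:132781642-132795079. Its 15 sites lay between 10706 and 12199 bases from the gene start. Vgf encodes a neurosecretory protein that is the precursor of several bioactive peptides, and spans 8051 bases of chromosome 5, chr5:137025301-137033351. Its 3 sites were at positions 137030339, 137031547 and 137032651. Resp18, an endocrine-specific protein of the secretory pathway, spans 6219 bases on the minus strand of chromosome 1, chr1:75272197-75278415, and its only site, at position 75278355, was 60 bases from the gene start. None of the 41 sites lay inside the span of a gene that is not protein-coding. Sites inside the spans of several protein-coding genes were left unnamed, so they could not be among the 41. Exons and untranslated regions were not used here, so sites are placed by distance only.

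Sites lay close together in the genes that had many. In Scg2, 19 of 22 sites had another within 100 bases, and in Chgb 14 of 15, whereas no Vgf site did. The Resp18 site had another 78 bases away, which is not a member site. Neighbouring sites may count the same reads, and sites of a gene are not replicates. The window around the Scg2 site nearest the gene start is shown because it is the only member site whose bases are covered by the RefSeq promoter table (build GRCm38.p6). It is 25 bases long, chr1:79439993-79440017 on the minus strand, with the site in capitals.
Scg2 start site: gagccctcactcAgcggcagagagg

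The promoters of Scg2, Chgb and Resp18 are shown because these 3 genes were covered by the RefSeq promoter table. Those of Scg2 and Chgb hold the cAMP response element TGACGTCA, in capitals, which reads the same on both strands and is bound by CREB-family factors. Each sequence is the 250 bases before the RefSeq gene start, chr1:79440027-79440276 on the minus strand for Scg2, chr2:132781392-132781641 on the plus strand for Chgb and chr1:75278416-75278665 on the minus strand for Resp18. The element lay 68 to 61 bases before the start in Scg2 and 72 to 65 bases before it in Chgb. It was found in the same window of 478 of 27025 genes (1.77%), and not in that of Resp18. The fourth gene, Vgf, whose reads were lower in M14KD, was not in the table, so its promoter was not searched.
Scg2: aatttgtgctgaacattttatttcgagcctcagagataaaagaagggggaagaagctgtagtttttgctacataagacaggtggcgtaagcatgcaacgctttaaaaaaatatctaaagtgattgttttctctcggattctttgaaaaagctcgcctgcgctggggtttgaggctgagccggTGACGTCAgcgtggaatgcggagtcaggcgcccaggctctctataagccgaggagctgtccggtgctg
Chgb: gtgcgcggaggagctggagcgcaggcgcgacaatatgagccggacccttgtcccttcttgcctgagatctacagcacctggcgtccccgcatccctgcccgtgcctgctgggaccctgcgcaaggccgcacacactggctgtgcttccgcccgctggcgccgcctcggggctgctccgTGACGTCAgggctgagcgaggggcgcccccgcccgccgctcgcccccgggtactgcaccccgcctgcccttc
Resp18: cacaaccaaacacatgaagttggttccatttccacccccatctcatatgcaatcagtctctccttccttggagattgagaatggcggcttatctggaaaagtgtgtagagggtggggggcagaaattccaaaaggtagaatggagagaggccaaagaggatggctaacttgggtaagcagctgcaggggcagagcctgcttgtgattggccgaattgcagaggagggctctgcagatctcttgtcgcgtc
A match is a description of the letters in this window, not evidence that a factor binds there.

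Scg2 reads were higher in knockdown cells in both kinds of library. Summed over its sites, Scg2 had 3752 and 3725 CPM in IP M14KD libraries against 2841 and 2817 CPM in IP SCR libraries. In Input it had 5557 and 5513 CPM in M14KD against 4083 and 4192 CPM in SCR. The M14KD and SCR libraries did not overlap in either kind, as for 19.8% of all genes on the higher side in IP and 19.9% in Input. The log2 fold change of M14KD over SCR was 0.42 (SE 0.06) in IP and 0.42 (SE 0.06) in Input, a ratio of 1.34 in each.

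Vgf reads were lower in knockdown cells in both kinds of library. Vgf had 36.3 and 36.2 CPM in IP M14KD libraries against 64.4 and 63.5 CPM in IP SCR libraries. In Input it had 24.3 and 24.1 CPM in M14KD, from 88 and 83 counts, against 41.5 and 43.7 CPM in SCR, from 150 and 159 counts. These groups did not overlap either, as for 26.1% of all genes on the lower side in IP and 20.5% in Input. The log2 fold change was -0.80 (SE 0.09) in IP and -0.81 (SE 0.16) in Input, ratios of 0.575 and 0.569.

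Chgb and Resp18 had smaller differences on the side of Scg2. Chgb had 416 and 413 CPM in IP M14KD libraries against 379 and 356 CPM in IP SCR libraries, and 530.1 and 525 CPM in Input M14KD against 483 and 478 CPM in Input SCR. Its log2 fold change was 0.20 (SE 0.07) in IP and 0.13 (SE 0.08) in Input. Resp18 had 75.0 and 63.5 CPM in IP M14KD libraries against 57.0 and 56.7 CPM in IP SCR libraries, and 122.8 and 122.1 CPM in Input M14KD against 102.9 and 104.2 CPM in Input SCR. Its log2 fold change was 0.31 (SE 0.10) in IP and 0.24 (SE 0.11) in Input, and the IP value was 0.19 without M14KD replicate 3. The M14KD libraries lay above the SCR libraries for both genes and both kinds, as for 19.8% of all genes in IP and 19.9% in Input. The IP M14KD libraries of Resp18 differed more from each other than those of any other of the 4 genes, relative to their mean. Over all genes tested, the median log2 fold change was 0.01 in IP and -0.00 in Input.

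**Figure D1:**
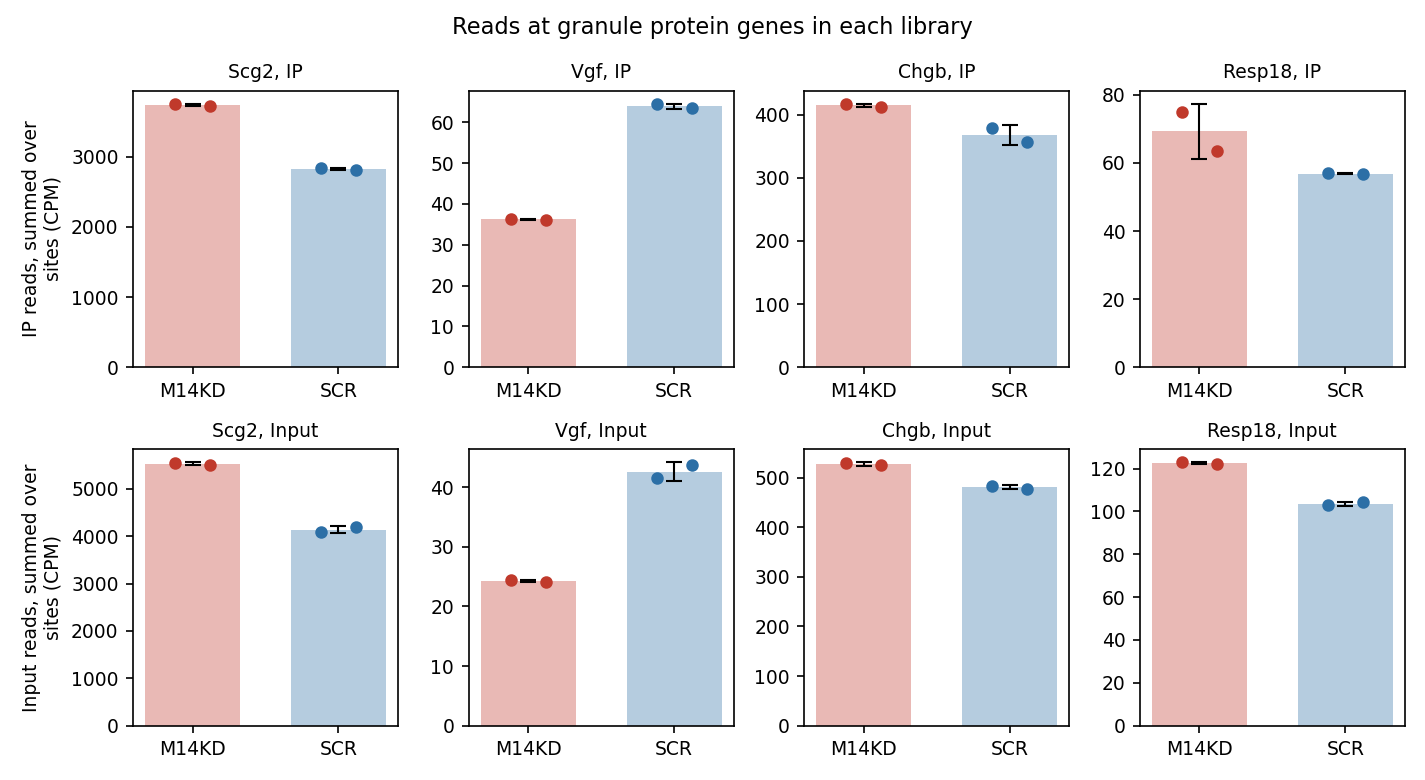
Reads summed over the sites of each gene, in CPM, for M14KD and SCR libraries in IP (upper row) and Input (lower row). Points are libraries, bars are means of 2 libraries and error bars are SDs; Scg2, Chgb and Resp18 bars are taller in M14KD and Vgf bars are shorter, in both rows.

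These differences had the same sign at every site of a gene, although the sites do not cover whole genes. All 22 Scg2 sites were higher in both M14KD libraries than in both SCR libraries, in IP and again in Input. Such separation held for 18.7% of all sites in IP and 18.3% in Input, and since this contrast chose the gene nothing is read from the comparison. Site log2 fold changes of Scg2 ran from 0.31 to 0.52 in IP (median 0.44) and from 0.37 to 0.52 in Input (median 0.44). The largest IP change was at the site 21 bases from the gene start, position 79440005. This site had 192 and 173 CPM in IP M14KD against 129 and 130.1 CPM in IP SCR, a log2 fold change of 0.52 (SE 0.08). The smallest, 0.31 (SE 0.09), was at position 79435519, with 84.4 and 87.3 CPM in IP M14KD against 67.3 and 73.8 CPM in IP SCR.

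All 3 Vgf sites were lower in both M14KD libraries than in both SCR libraries, in IP and in Input, a separation found at 25% of all IP sites and 19.8% of all Input sites. Nothing is read from this either, since the same contrast chose Vgf. The IP log2 fold change was -0.73 (SE 0.17) at position 137030339, -0.79 (SE 0.11) at position 137031547 and -0.89 (SE 0.18) at position 137032651. The last of these had 5.12 and 6.37 CPM in IP M14KD against 10.9 and 10.8 CPM in IP SCR. In Input the log2 fold changes were -0.65 (SE 0.21), -0.80 (SE 0.27) and -0.997 (SE 0.26) in the same order. The 3 IP values thus differed by amounts within their SEs. In Input the first and the last site differed by more than either SE.

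Chgb sites had log2 fold changes from 0.07 to 0.30 in IP and from 0.01 to 0.40 in Input, all 15 above 0 in each. The 2 M14KD libraries lay above both SCR libraries at 14 of 15 sites in IP and at 6 of 15 in Input, against 18.7% of all sites in IP and 18.3% in Input, from which nothing is read here. The largest IP value, 0.30 (SE 0.19), was at the site with the fewest IP reads, position 132792348, and the smallest, 0.07 (SE 0.11), at position 132793210. At that position the levels were 30.0 and 31.6 CPM in IP M14KD against 29.9 and 30.0 CPM in IP SCR.

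**Figure D2:**
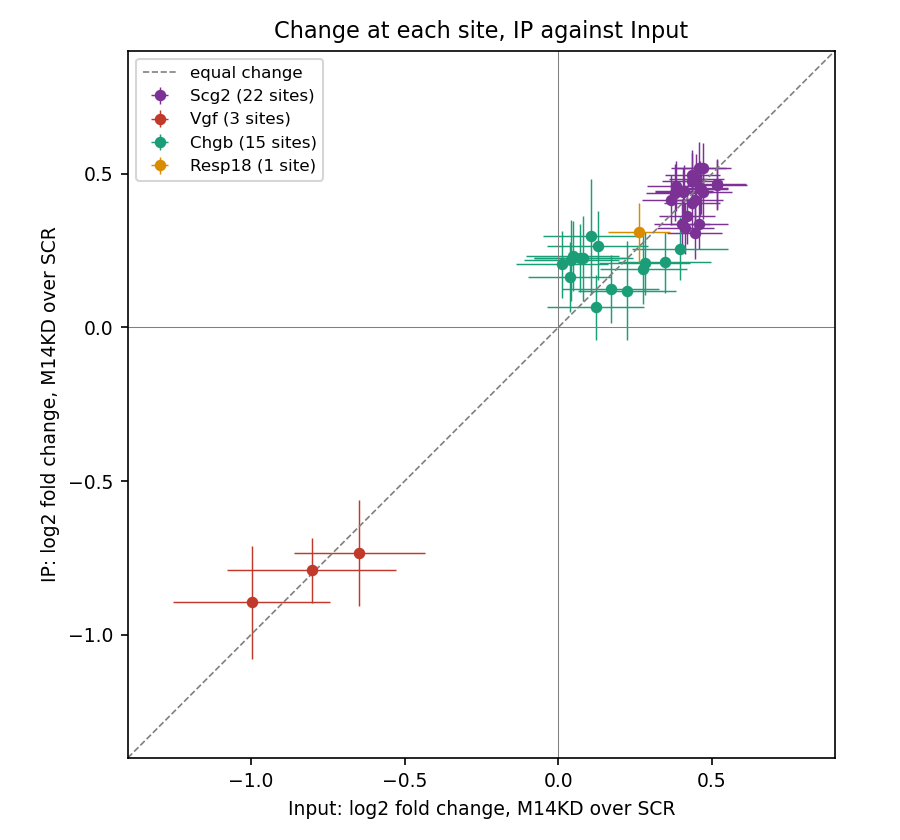
Log2 fold change of M14KD over SCR at each of the 41 sites, Input on the horizontal axis and IP on the vertical axis, with SEs as error bars. Scg2 sites gather near 0.4 on both axes, the 3 Vgf sites lie between -0.997 and -0.65 on both, and sites scatter about the dashed line of equal change.

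The ratio of IP to Input sets the m6A reads of a gene against its transcript reads, and it was close in both genotypes for all 4 genes. The Scg2 ratio of IP CPM to Input CPM was 0.675 and 0.676 in M14KD against 0.696 and 0.672 in SCR. The Vgf ratio was 1.490 and 1.498 in M14KD against 1.55 and 1.45 in SCR. The Chgb ratio was 0.786 and 0.786 in M14KD against 0.784 and 0.745 in SCR, and that of Resp18 was 0.611 and 0.520 in M14KD against 0.554 and 0.545 in SCR. The M14KD and SCR values overlapped for Vgf, Scg2 and Resp18, and the 2 M14KD values of Chgb lay just above the higher SCR value.

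As log2 changes of the ratio between M14KD and SCR, these were -0.01 (SE 0.08) for Scg2, -0.00015 (SE 0.15) for Vgf, 0.05 (SE 0.10) for Chgb and 0.05 (SE 0.15) for Resp18. An interval of 2 SE on either side ran from -0.18 to 0.16 for Scg2, from -0.30 to 0.30 for Vgf, from -0.16 to 0.25 for Chgb and from -0.24 to 0.34 for Resp18. A gene or site was called where edgeR's quasi-likelihood test gave a Benjamini-Hochberg adjusted p under 0.05. Over the whole table edgeR called 0 of 6379 genes for this change, with 2.63% at an unadjusted p under 0.05, and 0 of 33356 sites, with 3.72%, and DESeq2 called 0 genes. Changes of the ratio inside these limits could not be seen at this depth. Site by site the change ran from -0.14 to 0.07 in Scg2, from -0.09 to 0.10 in Vgf and from -0.15 to 0.18 in Chgb. All scalings use reads at the listed sites alone, so a fall of m6A that was equal at all sites would not appear in these values.

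Within a genotype, IP reads were distributed unevenly over sites whose Input reads were nearly level. Over the 22 Scg2 sites the mean Input level ran from 193 to 294 CPM in M14KD and from 138 to 218 CPM in SCR, a spread of 1.53 and 1.59 times. The mean IP level ran from 67.5 to 335 CPM in M14KD and from 50.6 to 269 CPM in SCR, or 4.96 and 5.31 times. Over the 15 Chgb sites, Input spread 1.61 times in M14KD and 1.71 times in SCR, and IP 6.77 and 7.19 times. Differences between sites in the ratio of IP to Input do not depend on how libraries are scaled.

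Scg2 reached its highest ratio at position 79435341, 4685 bases from the gene start, which was also its site with the most IP reads. There IP had 336 and 332 CPM in M14KD and 272 and 266 CPM in SCR, and Input had 217 and 234 CPM in M14KD and 166 and 167 CPM in SCR. The lowest ratio was at position 79435144, 4882 bases from the gene start, with 73.4 and 70.3 CPM in IP M14KD and 55.2 and 58.6 CPM in IP SCR. Input there was 288 and 274 CPM in M14KD and 208 and 218 CPM in SCR. Between these sites the ratio differed 5.79-fold in M14KD and 6.05-fold in SCR. A second group of high ratios was formed by 3 neighbouring sites at positions 79436546, 79436550 and 79436562, the middle one of which is 3 bases long; they were singled out after their values were seen.

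With TMM scaling, which sets the typical feature near 0, the log2 ratio was -0.15 (SE 0.08) in M14KD and -0.02 (SE 0.09) in SCR at the highest Scg2 site, and -2.69 (SE 0.09) in M14KD and -2.62 (SE 0.09) in SCR at the lowest. On this scale all 22 sites were below 0, and edgeR called 21 of them lower in IP than in Input in M14KD and 20 in SCR, where 33.1% and 33.4% of all sites were called lower. TMM was also computed over the lowest-ratio features (25% of all). Of the 22 sites, 9 were then called lower in M14KD and 9 in SCR, and 7 in M14KD and 8 in SCR were called higher. This scaling called 28507 of all 33356 sites in M14KD and 28694 in SCR, in either direction. Of the genes it called, 93.2% were higher in M14KD and 93.1% in SCR, so lower calls were uncommon among genes. The direction of a ratio is thus relative to the other sites. The site near the Scg2 gene start had a log2 ratio of -1.30 (SE 0.09) in M14KD and -1.35 (SE 0.09) in SCR, close to the median of the gene's sites, -1.379 in M14KD and -1.396 in SCR.

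In Chgb the highest ratio was at position 132793741, which took 12.7% ± 1.25 of the gene's IP counts in M14KD and 12.6% ± 0.116 in SCR, against 7.03% ± 0.791 of its Input counts in M14KD and 6.14% ± 0.0224 in SCR (SD, n = 2). The lowest was at position 132792348, and the ratio differed 5.89-fold in M14KD and 7.38-fold in SCR between them. The site at position 132792350, 2 bases from the lowest, was singled out after its values were seen. It had 163 and 160 IP counts in M14KD and 148 and 143 in SCR, against 77 and 84 in M14KD and 69 and 69 in SCR at its neighbour. Their Input counts were 94 and 104 in M14KD and 95 and 100 in SCR at the first, and 104 and 123 in M14KD and 107 and 113 in SCR at the neighbour. Sites 2 bases apart thus did not always share their IP reads.

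Vgf had 1 site with a high ratio between 2 sites with low ones. Position 137031547 took 63.4% ± 1.11 of the gene's IP counts in M14KD and 63.2% ± 1.26 in SCR, against 26.5% ± 6.88 of its Input counts in M14KD and 26.5% ± 2.57 in SCR (SD, n = 2). Its IP level was 22.7 and 23.2 CPM in M14KD and 40.1 and 40.7 CPM in SCR, and its Input level was 5.26 and 7.56 CPM in M14KD and 10.2 and 12.4 CPM in SCR. With TMM scaling, where 33.8% of all sites were called higher in M14KD and 34% in SCR, its log2 ratio was 1.13 (SE 0.21, adjusted p = 1.87e-05 by edgeR) in M14KD and 1.12 (SE 0.17, adjusted p = 5.26e-07) in SCR. Position 137030339 had a log2 ratio of -1.29 (SE 0.22, adjusted p = 5.72e-06) in M14KD and -1.20 (SE 0.18, adjusted p = 6.95e-07) in SCR. Position 137032651 had -0.93 (SE 0.26, adjusted p = 0.0025) in M14KD and -1.03 (SE 0.20, adjusted p = 2.97e-05) in SCR. The lower calls of these 2 sites are relative to TMM: with column totals 1 was called lower in each genotype, and with scaling on the features of lowest ratio none was. The share of Vgf IP reads at the middle site was thus more than its share of Input reads in every library, while the sum over the gene had a ratio near the typical gene.

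The order of sites was alike in both genotypes. Across the 22 Scg2 sites the log2 ratio in M14KD and that in SCR, which come from different libraries, had r = 0.997 (rho = 0.992), and across the 15 Chgb sites r = 0.984 (rho = 0.975). These are correlations across sites that share sequence and reads with their neighbours, given as a description. The 3 highest sites were the same 3 in M14KD and SCR in each gene, and no site moved by more than 3 ranks.

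**Figure D3:**
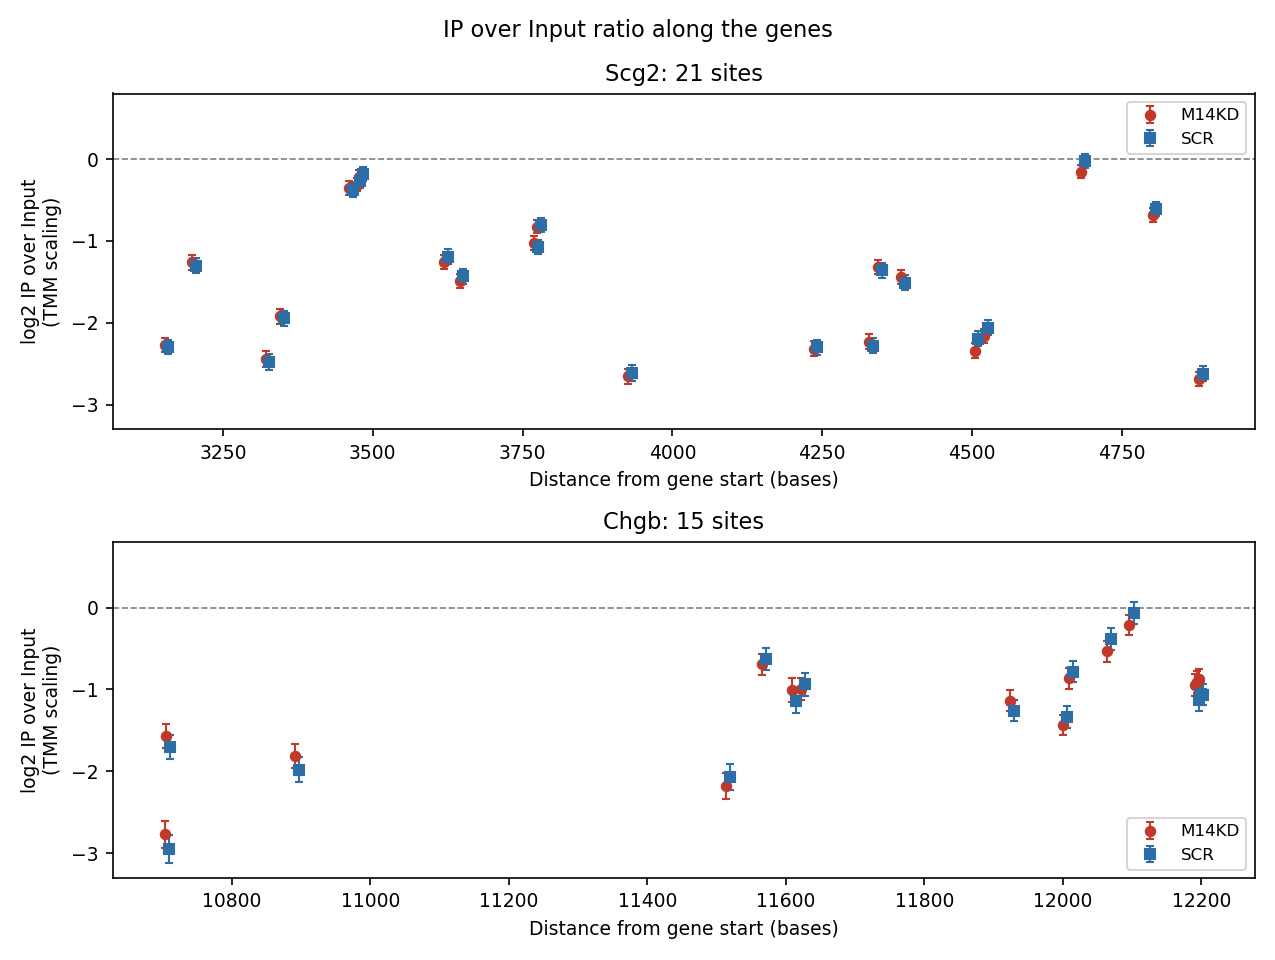
Log2 ratio of IP over Input with TMM scaling against the distance from the gene start in bases, for the 21 Scg2 sites other than the one near the gene start (upper panel) and the 15 Chgb sites (lower panel), with SEs as error bars. M14KD circles and SCR squares, shifted slightly apart, lie on each other along both genes while the ratio rises and falls from site to site.

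Summed over a gene, Scg2, Chgb and Resp18 had fewer IP reads relative to Input than most genes. The log2 ratio of Scg2 was -1.25 (SE 0.06, adjusted p = 7.27e-11 by edgeR) in M14KD and -1.24 (SE 0.06, adjusted p = 7.88e-11) in SCR. Chgb had -1.03 (SE 0.07, adjusted p = 4.69e-09) in M14KD and -1.08 (SE 0.07, adjusted p = 2.88e-09) in SCR. Resp18 had -1.51 (SE 0.10, adjusted p = 3.43e-09) in M14KD and -1.56 (SE 0.11, adjusted p = 3e-09) in SCR. Vgf had -0.11 (SE 0.13, adjusted p = 0.477) in M14KD and -0.11 (SE 0.11, adjusted p = 0.412) in SCR, and was not called. Among all genes tested, 35.6% were called lower in M14KD and 34.7% in SCR, so such a call is common.

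In M14KD, 8.78% of the 6379 genes tested had a ratio below that of Resp18, 13.4% below Scg2, 18.3% below Chgb and 45.2% below Vgf. In SCR the shares were 8.12%, 13.4%, 16.6% and 44.3%. The order of the genes was thus Resp18, Scg2, Chgb and Vgf in both genotypes, with intervals of 2 SE that overlapped between Resp18 and Scg2 and between Scg2 and Chgb, while that of Vgf stood apart from all 3. The zero of the scale is a choice. Scaling by column totals moved the median log2 ratio of all genes in SCR to 0.75 and scaling on the features with the lowest ratios moved it to 1.38, from 0.04 with TMM. The share of called genes that were higher in IP was 79.0% and 93.1% with these scalings and 50.3% with TMM in SCR. In SCR Scg2 was then at -0.53 and 0.10, Chgb at -0.36 and 0.26, Resp18 at -0.84 and -0.22, and Vgf at 0.61 and 1.23, each in that order.

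Other genes of the dense-core granule were taken from a list of 55, of which 28 had a site and 27 could be tested. For IP over Input, 5 were called higher and 16 lower in M14KD, and 6 higher and 19 lower in SCR, where 35.5% of all genes were called higher and 35.6% lower in M14KD, and 35.2% higher and 34.7% lower in SCR. The list's median log2 ratio was -0.72 in M14KD and -0.79 in SCR, against 0.02 and 0.04 over all genes. With scaling on the features with the lowest ratios the counts turned to 18 higher and 4 lower in M14KD, and 17 higher and 3 lower in SCR. Of all 6379 genes, this scaling called 5107 higher and 374 lower in M14KD, and 5126 higher and 382 lower in SCR. Higher calls were thus still less frequent in the list than among all genes, and lower calls more frequent.

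Chga, encoding chromogranin A, had 31 sites and a log2 ratio of -1.87 (SE 0.06) in M14KD and -1.87 (SE 0.06) in SCR, below that of Chgb and Scg2. Gcg, the glucagon precursor, had -2.62 (SE 0.06) in M14KD and -2.69 (SE 0.06) in SCR. The lowest value of the list in SCR was that of Dnajc5, a co-chaperone on vesicle membranes, with -3.23 (SE 0.20) in M14KD and -3.06 (SE 0.20) in SCR. Qsox1, a sulfhydryl oxidase, had -1.88 in M14KD and -1.63 in SCR, and Rab3a, a GTPase of vesicle docking, had -1.59 and -1.62. The highest called values in SCR were those of Ccdc186, a factor of granule maturation, and Syt11, a synaptotagmin. Ccdc186 had 1.39 (SE 0.58) in SCR and 0.08 in M14KD, where it was not called. It had 1 site, with a mean of 0.55 CPM in Input SCR and 2.37 CPM in IP SCR. Its reads were too few to be tested between genotypes in Input, so its place at the top is weak. Syt11 had 0.85 in M14KD and 0.80 in SCR. Furin, a proprotein convertase, had 0.76 in M14KD and 0.69 in SCR, Cpd, a carboxypeptidase, had 0.45 and 0.61, and Rims2, a scaffold of vesicle release, had 0.83 and 0.56. By role, 2 of 3 other granin-like genes, 3 of 5 processing enzymes, 5 of 6 granule membrane genes and 6 of 9 docking genes were called lower in SCR, against 34.7% of all genes.

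Between M14KD and SCR no gene of this list was called by edgeR in IP (0 of 27, with 5 at an unadjusted p under 0.05) or in Input (0 of 26, with 1). The background is 0% of genes called in either kind, with 14.1% of genes at an unadjusted p under 0.05 in IP and 10.2% in Input. DESeq2 called 1 list gene in IP, Gcg (0.29, SE 0.08, adjusted p = 0.0452), and none in Input. Over all genes it called 45 of 6381 in IP and 23 of 5826 in Input. The list's median log2 fold change was -0.03 in IP and -0.06 in Input. The IP values with the lowest p above 0 were those of Gcg (0.29, SE 0.06), Chga (0.12, SE 0.07) and Atp6ap1, an accessory subunit of the proton pump (0.09, SE 0.07). Those below 0 were of Atp6v0a1, a subunit of the same pump (-0.31, SE 0.08), Rab3d, a vesicle GTPase (-0.37, SE 0.12), and Furin (-0.31, SE 0.11). In Input the lowest p above 0 belonged to Gcg (0.21, SE 0.05), Chga (0.10, SE 0.06) and Pcsk2, a prohormone convertase (0.07, SE 0.07), and below 0 to Rab3a (-0.32, SE 0.16), Furin (-0.40, SE 0.21) and Syt4, a synaptotagmin (-0.26, SE 0.15). The Gcg call by DESeq2 rests on the tool, and edgeR gave an adjusted p = 0.192 for it. Leaving out SCR replicate 1, Gcg had 0.34 in IP and 0.25 in Input, and Atp6v0a1 had -0.41 in IP. Gcg had 0.23 in IP without SCR replicate 2, and Furin had -0.47 in IP without M14KD replicate 4. These fits leave 1 library in a group, so only their fold changes are given.

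**Figure D4:**
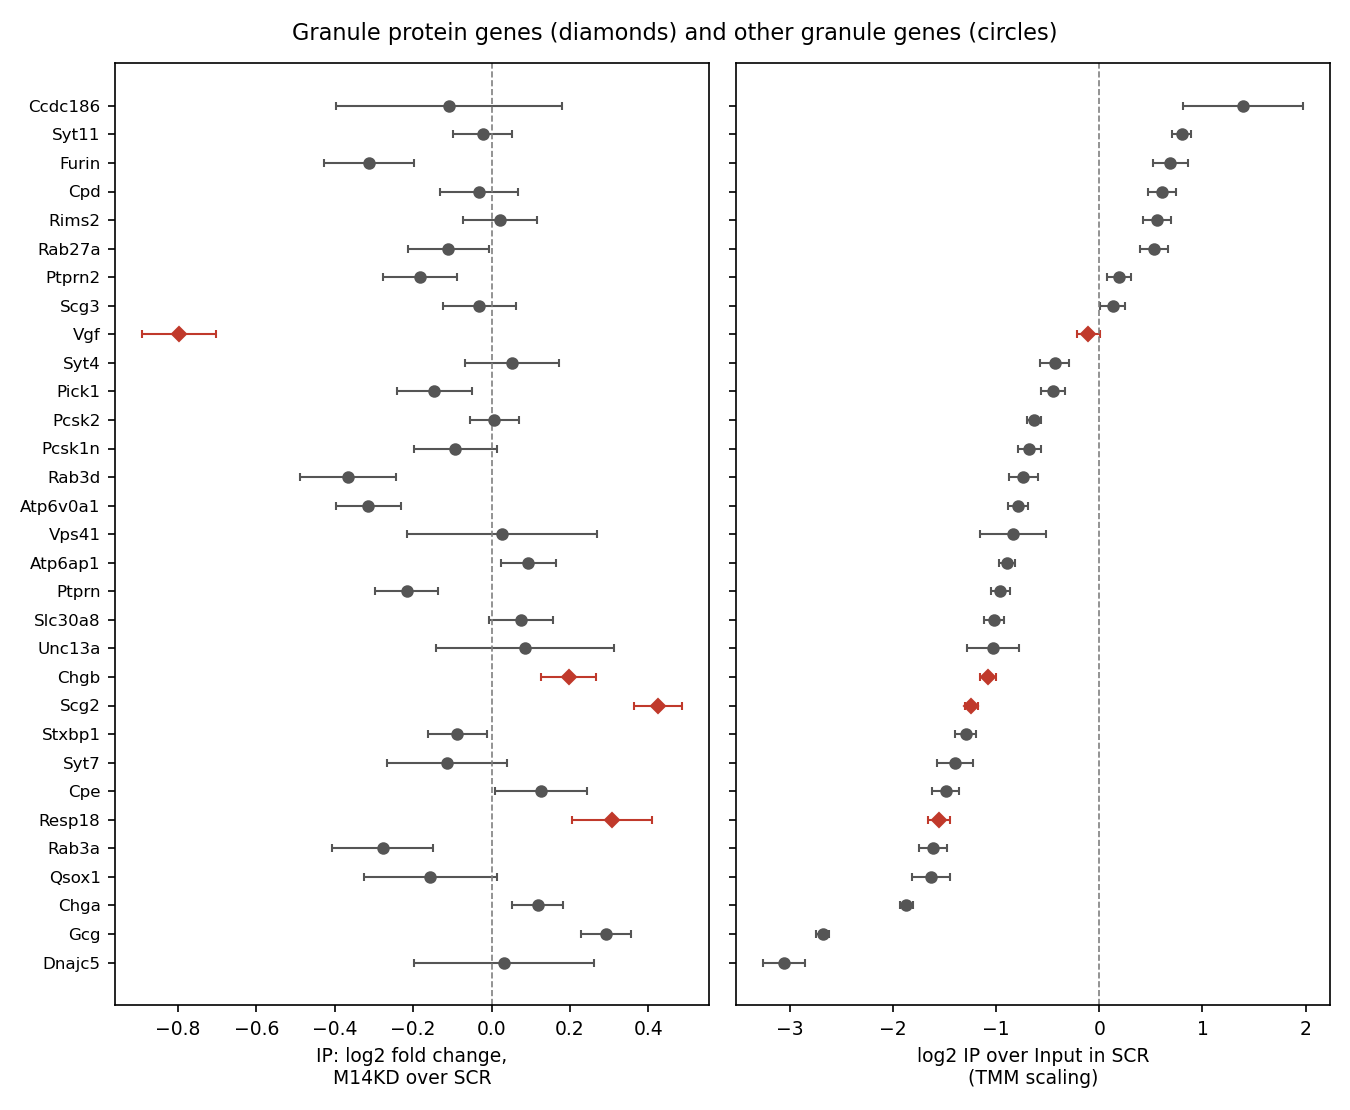
Scg2, Vgf, Chgb and Resp18 (diamonds) among the 27 tested genes of the granule list (circles), ordered by log2 IP over Input in SCR with TMM scaling (right panel), beside the log2 fold change of M14KD over SCR in IP (left panel), with SEs as error bars. Vgf stands farthest to the left at -0.80 and Scg2 farthest to the right at 0.42 in the left panel, the contrast that chose them.

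The genes whose reads followed each member most closely over the 8 libraries were found by the root mean square difference of gene-centred log2 CPM among 4161 genes with a mean count of at least 50 in both kinds of library. Nearest to Scg2 were Thoc7, a subunit of the THO mRNA export complex (0.06), Tceal8 (0.06) and Smim26 (0.10), against a median difference of 0.65. Nearest to Vgf were Trib3, a pseudokinase (0.10), Chac1, a glutathione-degrading enzyme (0.16), and Slc7a1, a cationic amino acid transporter (0.21), with a median of 0.55. The log2 fold change of M14KD over SCR in IP was -0.64 (SE 0.10) in Trib3, -0.57 (SE 0.09) in Chac1 and -0.36 (SE 0.09) in Slc7a1. Each was smaller in size than that of Vgf, which lay at percentile 0.20 among 6381 genes. The match used the M14KD and SCR libraries themselves, so values below 0 follow from it and nothing is read from them. Nearest to Chgb were Gm46220 (0.03), Fmc1 (0.04) and Atp6v0e, a proton pump subunit (0.04), with a median of 0.54. Nearest to Resp18 were Banf1 (0.05), Srp19, a signal recognition particle protein (0.06), and Atp6v1e1, another proton pump subunit (0.07), with a median of 0.76.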

How the data were processed

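The authors deposited raw counts, whole numbers that are not normalized, with 1 row per site and 1 column per library, per the file headers. UMI-tools, cutadapt, STAR and mm10 are named per the submitters' processing notes; versions, site calling, the counting window and filters are unstated in the sources used here. A site was named by the 1 protein-coding RefSeq gene (GRCm38.p6) whose span held it, or by the 1 other gene where none was protein-coding: 31928 sites, 6531 genes. Site positions are 1-based. Counts were tested per site and summed per gene with edgeR 4.0.16 (filterByExpr, TMM, quasi-likelihood F-test; R 4.3.3), adjusted over all features, threshold 0.05; the SE was taken as the size of the log2 fold change divided by the root of F. IP over Input used all 8 libraries, M14KD over SCR the 4 of 1 kind. DESeq2 1.42.0, other scalings, filters, thinned sites, left-out replicates and a replicate block were alternatives. The main edgeR fit was tested on simulated data for IP over Input in SCR and for M14KD over SCR in IP. The other comparisons and the alternatives were not simulated. The 4 genes, the granule list and the markers were chosen with earlier results of these data known.

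Replicate numbers were taken to pair IP and Input libraries: same-numbered libraries deviated together from their group means over 23307 sites (r = 0.261 for SCR and r = 0.156 for M14KD). Replicates of a group differed by more than sampling noise, with chi-square over degrees of freedom of 1.35 to 2.55. The rule for naming took the 4 genes, their sites with the most IP reads or the highest or lowest values, the 3 genes nearest to each, the 5 highest and 5 lowest called list genes for IP over Input in SCR, and the 3 lowest p in each direction for M14KD over SCR.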

Additional observations from a re-analysis of the deposited data

How the results depend on the processing

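The sign of IP over Input depended on scaling. With column totals Vgf turned to 0.60 in M14KD and 0.61 in SCR. With TMM over the 25% of features with the lowest ratios, Scg2 was 0.10 and 0.10, Vgf 1.25 and 1.23, Chgb 0.32 and 0.26, and Resp18 -0.15 and -0.22, no longer called, in M14KD and in SCR. Site calls moved too. Of all 33356 sites, column totals called 25167 in M14KD and 25306 in SCR, in either direction. The scaling on low ratios called 28507 in M14KD and 28694 in SCR. Of the genes called in M14KD, 78.2% were higher with column totals and 93.2% with the scaling on low ratios. In SCR these shares were 79.0% and 93.1%. Column totals called 4 Scg2 sites higher in each genotype, 1 Chgb site in M14KD and 2 in SCR higher, 6 Chgb sites lower in M14KD and 1 Vgf site lower in each. The other scaling called 7 Scg2 sites higher and 9 lower in M14KD, 8 higher and 9 lower in SCR, 10 Chgb sites higher and 3 lower in M14KD, 8 higher and 3 lower in SCR, and 0 Vgf and 0 Resp18 sites lower. For the granule list, column totals called 8 genes higher in M14KD and 11 lower in SCR. The other scaling called 18 list genes higher and 4 lower in M14KD, and 17 higher and 3 lower in SCR. Of all 6379 genes, column totals called 3917 higher in M14KD and 1062 lower in SCR. The other scaling called 5107 of them higher and 374 lower in M14KD, and 5126 higher and 382 lower in SCR. These shifts follow from where each scaling sets its zero.

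M14KD over SCR in IP was 0.40 for Scg2 and -0.82 for Vgf with column totals, and 0.41 for Scg2 with no filter. In Input, Chgb was 0.12 and Resp18 0.23 with the scaling on low ratios, and Chgb 0.081 with sites at least 100 bases apart. All 4 genes kept their sign in M14KD over SCR, in IP and in Input, under the 11 alternatives run for each. Nothing is read from this, since the alternatives reuse the libraries of the contrast that chose the genes. Leaving out 1 replicate gave 0.41 to 0.43 for Scg2, -0.82 to -0.79 for Vgf, 0.14 to 0.24 for Chgb and 0.19 to 0.40 for Resp18 in IP, and 0.40 to 0.45 for Scg2, 0.13 to 0.15 for Chgb and 0.23 to 0.26 for Resp18 in Input. The change of the ratio ran from -0.051 to 0.032 for Scg2 and from -0.064 to 0.065 for Vgf. List genes were called between M14KD and SCR only by DESeq2 and in fits that left 1 library in a group. DESeq2 called 1 list gene higher in IP. Vgf sites called lower for IP over Input in M14KD were 1 to 2.

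Counts over the whole table were less stable. Sites called for M14KD over SCR in IP were 210, with 118 by DESeq2 and 0 to 1422 without 1 replicate, 1422 being without SCR replicate 1, 0 without M14KD replicate 3 and 85 without M14KD replicate 4. In Input they were 28, with 57 under the scaling on low ratios, 0 with no filter, 4 without SCR replicate 2 and 0 without either M14KD replicate. Genes called were 0 in each. Other scalings called 0 or 1. In IP, DESeq2 called 45, a model of all 8 libraries 11, and fits without 1 replicate 11 to 187. In Input, DESeq2 called 23, sites 100 bases apart gave 3, and fits without 1 replicate gave 0 to 34. With the replicate block, IP over Input was -1.25 in M14KD and -1.24 in SCR for Scg2, and the block changed no call of the 4 genes; it called 1 site for the change of the ratio, against 0. The cause of the other shifts was not tested. Input depth, with a median of 31 to 34 counts a site, limits small changes of the ratio, most of all for Vgf.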
